A study of Mus musculus with 14 samples.

Results

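The genes of the tumor necrosis factor (TNF) superfamily, its ligands and its receptors, were followed in mouse livers and in mouse pancreatic stellate cells (PSCs). Members were taken by symbol, as protein-coding genes whose symbol starts with Tnfrsf or Tnfsf, together with Tnf, Lta, Ltb, Ltbr, Fas and Cd40. This gave 38 of the 54532 genes of the liver table, and 30 of the 16481 genes of the PSC table. The other 8, Lta, Tnfrsf13c, Tnfrsf17, Tnfrsf18, Tnfrsf8, Tnfsf14, Tnfsf4 and Tnfsfm13, were not listed in the PSC table. By role, the 38 divided into 14 ligands, 5 receptors with a death domain, 14 receptors that bind TRAF adaptor proteins, 4 decoy receptors and Tnfsfm13, which overlaps Tnfsf12 and Tnfsf13 and was given no role.

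TNF superfamily ligands are proteins of immune, stromal and epithelial cells that act at the cell surface or after they are shed from it. Receptors with a death domain can start apoptosis or necroptosis, receptors that bind TRAF proteins mainly activate NF-kappaB and MAP kinases, and decoy receptors bind ligands without passing on a death signal. In the liver the family is known for hepatocyte death through Fas and TNF receptors and for signals between macrophages and hepatocytes, and in fibroblasts for the secreted decoy osteoprotegerin, the product of Tnfrsf11b.

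RNA-Seq was performed on livers of mice aged 8 to 12 weeks, taken 20 days after KPCY cells had been injected into the tail of the pancreas. KPCY cells are a mouse pancreatic cancer line with a yellow fluorescent tracer, and they carried functional TRPV4 in every group. Livers came from 3 groups: WT animals without the drug (2), TRPV4 KO animals (3), and WT animals (3) that received GSK219 (GSK2193874), a TRPV4 antagonist, by daily gavage at 10 mg/kg. In the Methods of the study, mice called WT are Piezo fl/fl animals and TRPV4 KO is a global Trpv4-/- mutation. Whether the TRPV4 KO mice also carried the floxed allele is not given in the sources used here. Whether the WT mice were given vehicle is not given in the sources used here. Mouse PSCs were cultured on Matrigel and treated with Yoda1 at 25 μM, an agonist of the PIEZO1 channel, or with its solvent DMSO (3 libraries each). In the labels each DMSO library shares an ST number with 1 Yoda1 library, and the libraries of one number are called a pair here. What the number marks, such as an animal or a culture, is not given in the sources used here. The Methods give 24 hours of treatment and a legend of the study gives 72 hours.

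Totals ran from 15567031 to 17395299 counts in livers and from 27312894 to 39070539 reads in PSCs. Trpv4 had 43 and 53 counts in WT, 15, 5 and 23 in TRPV4 KO and 20, 30 and 36 in GSK219 livers. These are counts over the whole gene, and the deleted part is not given in the sources used here. Replicate 1 of WT and replicate 3 of each other group held Xist reads, and the other 5 livers held reads of Y-linked genes. PSC libraries held the fibroblast transcripts Col1a1 (213908 to 463416 normalized reads) and Acta2 (27293 to 133472), but the stellate cell markers Gfap and Lrat were not listed. They also held the epithelial keratin Krt8 (22259 to 47725) and the acinar gene Ctrb1 (724.5 to 9638).

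Promoter sequences are shown for members that changed with Yoda1 once the pair was taken into account, since these carry the PSC result described further on. RefSeq entries on GRCm38.p6, from 250 bases before to 50 bases after the start, were found for 30 of the 38 members. Of the 8 changed members, Tnfrsf21, Tnfrsf23 and Tnfrsf12a had an entry, and Tnfrsf11b, Cd40, Tnfrsf22, Tnfrsf26 and Tnfsf9 had none. Capitals mark the GC box, GGGCGG or its reverse complement, and sequences read 5′ to 3′ on the strand of the gene, at chr17:43016305-43016604 (plus), chr7:143685826-143686125 (minus) and chr17:23677400-23677699 (minus).
Tnfrsf21: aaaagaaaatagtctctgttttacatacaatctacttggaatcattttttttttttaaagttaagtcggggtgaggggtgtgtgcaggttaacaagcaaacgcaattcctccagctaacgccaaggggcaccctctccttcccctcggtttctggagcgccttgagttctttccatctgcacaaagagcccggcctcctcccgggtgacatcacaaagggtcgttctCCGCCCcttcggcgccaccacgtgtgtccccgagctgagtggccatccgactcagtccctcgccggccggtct
Tnfrsf23: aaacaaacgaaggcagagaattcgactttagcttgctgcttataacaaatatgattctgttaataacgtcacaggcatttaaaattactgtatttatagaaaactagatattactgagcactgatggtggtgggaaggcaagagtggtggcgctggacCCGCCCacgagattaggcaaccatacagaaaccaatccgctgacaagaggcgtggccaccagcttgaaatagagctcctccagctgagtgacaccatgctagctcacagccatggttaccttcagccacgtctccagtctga
Tnfrsf12a: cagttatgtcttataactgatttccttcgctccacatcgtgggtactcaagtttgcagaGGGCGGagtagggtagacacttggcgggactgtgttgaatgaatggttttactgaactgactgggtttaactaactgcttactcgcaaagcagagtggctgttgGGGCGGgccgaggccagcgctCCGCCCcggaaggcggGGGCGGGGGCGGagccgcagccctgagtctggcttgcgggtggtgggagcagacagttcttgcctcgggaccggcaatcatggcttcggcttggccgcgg
Tnfrsf12a held 5 GC boxes, and Tnfrsf21 and Tnfrsf23 held 1 each. A GC box was found in 35.7% of all 32851 promoters and in 47.1% of the 34 entries of members. The AP-1 site TGANTCA (7.81% of all promoters), the cyclic AMP response element TGACGTCA (1.79%), the TEAD site GGAATG (14.7%) and the kappaB consensus (8.46%) were searched on both strands and found in none of the 3. Among all entries of members the AP-1 site was found in 20.6%, the cyclic AMP response element in 0.0%, the TEAD site in 14.7% and the kappaB consensus in 11.8%. A match is only a run of letters, and none of these shares was tested.

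Levels were compared between genes as reads per kilobase of gene length, scaled to the depth of the library (RPKM). In livers, receptors led. Tnfrsf1a, the main TNF receptor with a death domain, had a mean of 55.5 RPKM (37.8 to 76.2 over 8 libraries), and Ltbr, the lymphotoxin beta receptor, 52.8 (47.3 to 60.6). Their ranges overlap, and they made 34.6% and 32.9% of the summed means of the family. Tnfrsf1b, the second TNF receptor, followed at 14.1 RPKM and Fas, the receptor of Fas ligand, at 8.5.

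Ligands were scarce in livers. The highest was Tnfsf12, which encodes TWEAK, at 4.2 RPKM, and its receptor Tnfrsf12a stood at 3.85. Tnf itself was at 0.291 RPKM. Of the 38 members, 10 had too few counts to be tested: Tnfrsf13c, Tnfsf8, Tnfrsf9, Tnfsf15, Tnfrsf8, Tnfrsf17, Tnfsf11, Lta, Tnfsf4 and Tnfsf18. Apart from Tnfsf15, which had 14 counts in TRPV4 KO replicate 3 and 0 or 1 elsewhere, none of these went over 6 counts in any liver. No fold change is given for these 10.

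In PSCs the order was different. Tnfrsf12a led at 107 RPKM (98 to 114 over 6 libraries), ahead of Tnfrsf1a at 50.1 and Ltbr at 41.8. Tnfrsf11b, at 18.7 RPKM, and Tnfrsf23, at 17.8, came next and were followed by Tnfrsf1b at 13.2 and Tnfrsf10b, the mouse TRAIL receptor, at 12.4. The leading ligands were Tnfsf15 (TL1A) at 8.84 and Tnfsf9 (the ligand of 4-1BB) at 4.71 RPKM. Tnfsf18, Tnfsf11, Tnfrsf13b, Tnfrsf25 and Tnf were listed with at most 25 reads and were not tested. Livers and PSCs were counted and normalized separately, so their levels stand side by side and were not tested against each other.

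**Figure D1:**
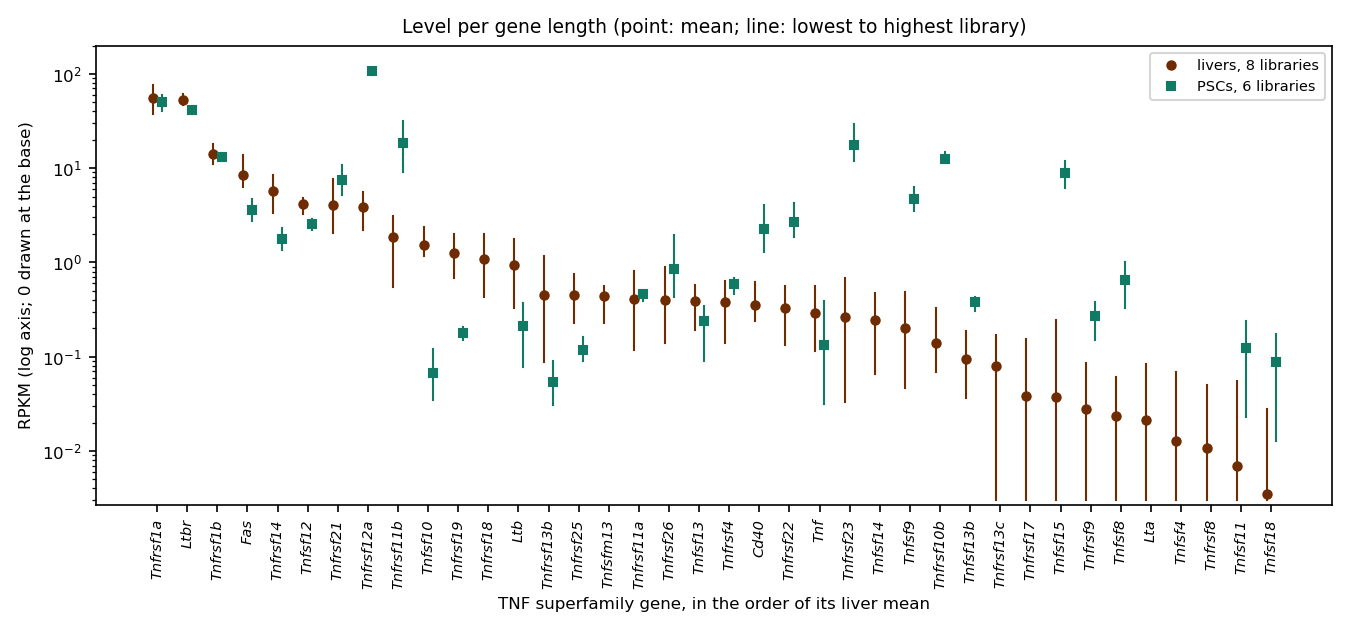
Mean RPKM of each member in livers (brown circles, 8 libraries) and PSCs (green squares, 6 libraries) on a log axis, with lines from the lowest to the highest library. Tnfrsf1a and Ltbr lead in livers at 55.5 and 52.8 RPKM, and Tnfrsf12a leads in PSCs at 107.

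The comparison of WT with TRPV4 KO livers asks which members differ when the host lacks TRPV4. No member passed an adjusted p of 0.05 in edgeR, where 0.291% of all 15118 tested genes did. DESeq2 called no member either, while it called 5.24% of genes. Of the 28 tested members, 7 (25%) had an unadjusted p under 0.05, all higher in WT: Tnfrsf10b, Tnfrsf26, Tnfrsf1a, Tnfrsf21, Tnfrsf23, Tnfrsf13b and Tnfsf13b. Of all genes, 9.5% had such a p and were higher in WT, and 7.61% were lower. The fitted change was above 0 in 23 of the 28 (82.1%, against 48.8% of all genes), with a median log2 fold change of 0.71 against -0.01 over all genes. For these 7 members the log2 ratio of WT over TRPV4 KO was 0.39 to 1.91 between libraries with Xist reads and 0.65 to 1.78 between libraries with Y-linked reads. Both WT livers lay above all 3 TRPV4 KO livers for 13 members (46.4%), where 17.7% of all genes did so. They lay below for Tnfrsf19 alone, where 15.5% of all genes did so. The filter asked for about 10 counts in any 2 of the 8 livers, whatever their group. Tnfsf9, for one, had 10 counts in WT replicate 1 and in GSK219 replicate 3. Tnfrsf10b, Tnfsf13b, Tnfsf14 and Tnf reached 10 counts in 2 livers of a group only in WT, so their testing leaned on the WT livers. In each of these 4 a liver of another group reached 10 counts as well. Without these 4, 19 of 24 were higher in WT, the median log2 fold change was 0.54, 10 had both WT livers on top and 5 (20.8%) had an unadjusted p under 0.05. Members with such a p were described further only where the groups did not overlap, so the separation of those described is part of their choice.

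Tnfrsf10b, which reached 10 counts in 2 livers of a group only in WT, was set apart. Of the other death domain receptors, 4 of 4 were higher in WT on the fitted scale, with a median log2 fold change of 0.59. Tnfrsf1a (chromosome 6, 125349362 to 125362484) had 3190 and 3010 counts in WT livers and 1983, 1510 and 2595 in TRPV4 KO livers. The groups did not overlap, and the nearest library was TRPV4 KO replicate 3. At 186 ± 15.5 CPM, which are counts scaled to library size (SD, n = 2), against 124 ± 26.2 (n = 3), the log2 fold change was 0.58 ± 0.18 (SE, edgeR adjusted p = 0.18). Tnfrsf21 (chromosome 17, 43016555 to 43089189), which encodes death receptor 6, had 512 and 463 counts in WT and 151, 131 and 346 in TRPV4 KO livers. Again TRPV4 KO replicate 3 stood apart from the other libraries of its group and still lay below both WT livers. The log2 fold change was 1.21 ± 0.41 (edgeR adjusted p = 0.20).

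The call of Tnfrsf21 depended on the model. With a term for Xist against Y-linked reads in the edgeR model its adjusted p was 0.031, in a fit that called 3.54% of all genes. Between the libraries with Xist reads, the log2 ratio of WT over TRPV4 KO was 0.66, and between those with Y-linked reads it was 1.57. With the replicate number as a block, which calls 3.51% of all genes, its adjusted p was 0.014, although the numbers do not pair the mice. Without TRPV4 KO replicate 3, edgeR called 8.64% of all genes and 3 of the 27 members tested in that fit: Tnfrsf21, Tnfrsf1a (adjusted p = 0.037) and Tnfrsf13b (log2 fold change 2.24, adjusted p = 0.047).

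Tnfrsf10b (chromosome 14, 69767472 to 69784411) was low in all livers, with 29 and 20 counts in WT and 8, 8 and 7 in TRPV4 KO. Its log2 fold change was 1.62 ± 0.47 (edgeR adjusted p = 0.16), in a gene that reached 10 counts in 2 livers of a group only in WT. Fas was not separated. Its counts were 404 and 219 in WT and 180, 194 and 318 in TRPV4 KO livers, a log2 fold change of 0.42 ± 0.31 (edgeR adjusted p = 0.53).

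Among the receptors that bind TRAF proteins, the abundant members did not separate the groups and some scarce ones did. Ltbr differed by 0.01 ± 0.14 on the log2 scale (edgeR adjusted p = 0.97), with 2153 and 2068 counts in WT and 2256, 1886 and 1940 in TRPV4 KO livers. Tnfrsf1b differed by 0.10 ± 0.18 (edgeR adjusted p = 0.84), and TRPV4 KO replicate 1 held the highest count of all livers. Cd40, the receptor by which T cells activate antigen-presenting cells, differed by 0.50 ± 0.45 with overlapping groups (edgeR adjusted p = 0.63).

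Tnfrsf13b (chromosome 11, 61126755 to 61149372) encodes TACI, a receptor of the ligands BAFF and APRIL known from B cells. It had 53 and 38 counts in WT and 10, 8 and 30 in TRPV4 KO livers, a log2 fold change of 1.49 ± 0.60 (edgeR adjusted p = 0.26). The groups did not overlap, and TRPV4 KO replicate 3 was again the nearest. The summed level of 7 B and plasma cell markers was 12.7 to 27.6 CPM in WT and 12.1 to 24.4 in TRPV4 KO livers. On the fitted scale 4 of them were lower in WT and 3 were higher, with a median log2 fold change of -0.97 and none called. Their part in the values of Tnfrsf13b was not tested. Tnfrsf19 (TROY) went the other way, with 79 and 55 counts in WT and 91, 96 and 143 in TRPV4 KO, and did not pass an unadjusted p of 0.05.

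Of the ligands, 8 were tested. Tnfsf13b, Tnfsf14 and Tnf reached 10 counts in 2 livers of a group only in WT. Without them, 3 of 5 were higher in WT, with a median log2 fold change of 0.23. Tnfsf13b (chromosome 8) encodes BAFF, a ligand of TACI made mainly by myeloid cells. Its counts were 21 and 18 in WT and 4, 9 and 12 in TRPV4 KO livers, which do not overlap, and the log2 fold change was 1.18 ± 0.48 (edgeR adjusted p = 0.26). Tnf had 15 and 10 counts in WT and 3, 4 and 12 in TRPV4 KO livers. These overlap, and the log2 fold change of 0.95 ± 0.60 had an edgeR adjusted p of 0.46. Without WT replicate 1 it was 0.60.

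The decoy receptors had the highest median of the roles, at a log2 fold change of 1.46, with 4 of 4 higher in WT. Tnfrsf11b had 137 and 150 counts in WT and 55, 24 and 97 in TRPV4 KO livers, with no overlap. Its log2 fold change was 1.27 ± 0.61 (edgeR adjusted p = 0.33). Tnfrsf22, Tnfrsf23 and Tnfrsf26 lie side by side on chromosome 7 between 143607659 and 143685872. Tnfrsf22 and Tnfrsf23 are mouse decoy receptors of TRAIL, and Tnfrsf26 is a related receptor without a death domain. Tnfrsf23 had 44 and 19 counts in WT and 9, 2 and 14 in TRPV4 KO livers (log2 fold change 1.89 ± 0.65, edgeR adjusted p = 0.20), and without WT replicate 1 its log2 fold change was 1.13. Tnfrsf26 had 46 and 26 against 9, 7 and 18 (1.64 ± 0.51, edgeR adjusted p = 0.18). Both keep the groups apart, and in both WT replicate 1 was the highest of all livers.

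**Figure D2:**
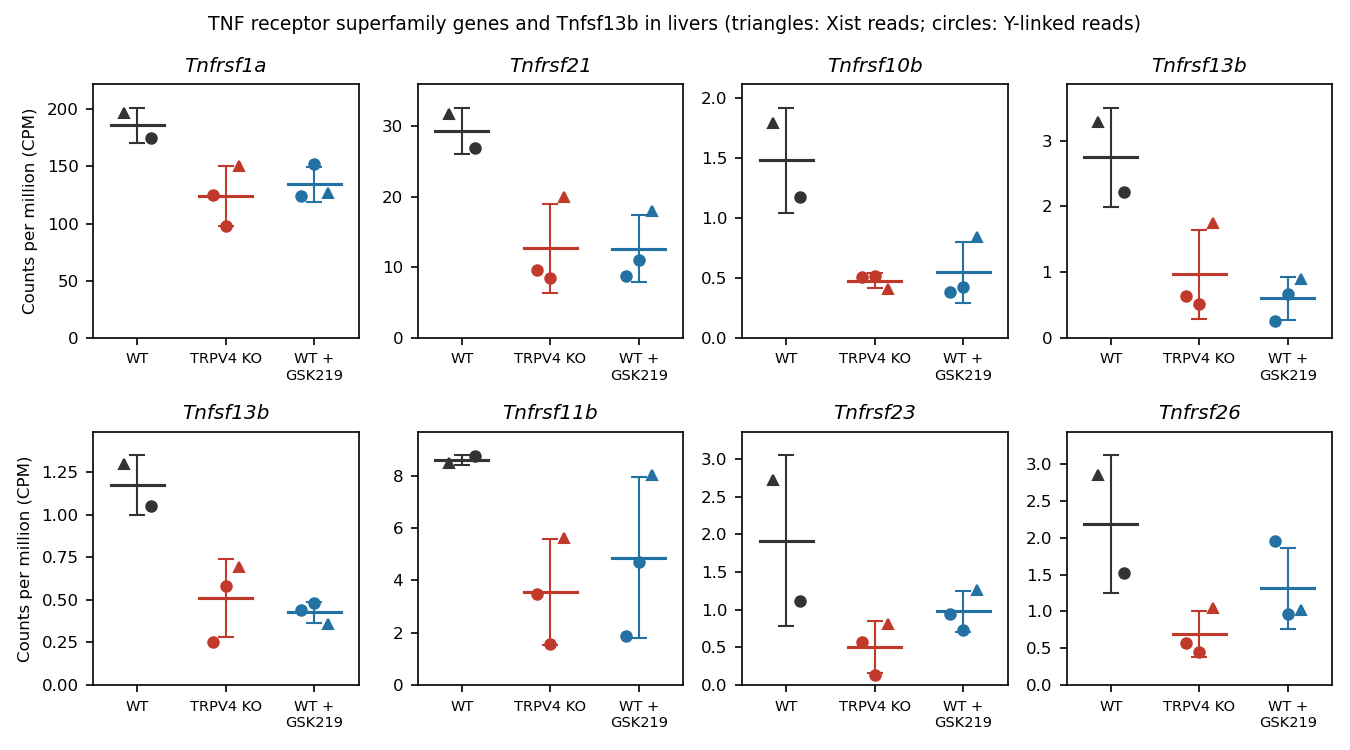
Counts scaled to library size (CPM) of 8 members in the 8 livers, with the mean (long bar) and SD (error bar) of each group, triangles for livers with Xist reads and circles for livers with Y-linked reads. The 8 were picked among the 13 members in which both WT livers lie above all TRPV4 KO livers, as they do in 17.7% of all genes, so the separation in the panels was fixed by the choice, and none of the 8 passed an adjusted p of 0.05 in edgeR.

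The comparison of WT with GSK219 livers asks the same question for a drug against the channel, and it uses the same 2 WT livers, so the comparisons are not independent. No member was called by edgeR, where 0% of all genes were, or by DESeq2, where 0.699% were. At an unadjusted p under 0.05 there were 7 of 28 members (25%), all higher in WT, where 5.87% of all genes were higher and 2.34% lower. Their log2 ratios ran from 0.63 to 1.76 between libraries with Xist reads and from 0.35 to 2.05 between libraries with Y-linked reads. Both WT livers lay above all GSK219 livers for 11 of the 28 (39.3%, against 15.6% of all genes), and below for none of them (11.7% of all genes). The median log2 fold change was 0.44, against 0.00 over all genes. Without Tnfrsf10b, Tnfsf13b, Tnfsf14 and Tnf, the median was 0.37, 8 of 24 had both WT livers on top and 5 (20.8%) had an unadjusted p under 0.05.

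Among the death domain receptors, Tnfrsf21 had 140, 183 and 301 counts with GSK219 against 512 and 463 in WT, which gave a log2 fold change of 1.22 ± 0.41 (edgeR adjusted p = 0.54). Tnfrsf1a had 1976, 2513 and 2131 counts with GSK219, all below WT, and a log2 fold change of 0.47 ± 0.18 (edgeR adjusted p = 0.57). Tnfrsf10b had 6, 7 and 14 counts with GSK219, and its log2 fold change was 1.42 ± 0.46 (edgeR adjusted p = 0.54). Tnfrsf10b, again, reached 10 counts in 2 livers of a group only in WT. Fas differed by 0.42 ± 0.31 (edgeR adjusted p = 0.80).

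Of the receptors that bind TRAF proteins, Tnfrsf13b had 4, 11 and 15 counts with GSK219 against 53 and 38 in WT, the smallest p of the family in this comparison (log2 fold change 2.16 ± 0.62, edgeR adjusted p = 0.51). Tnfrsf11a, which encodes RANK, the receptor of Tnfsf11, had 22, 32 and 35 counts with GSK219 and 79 and 56 in WT (1.17 ± 0.50, edgeR adjusted p = 0.60). Tnfrsf18 (GITR) had 23, 18 and 22 against 49 and 38 (1.03 ± 0.44, edgeR adjusted p = 0.60). No library of GSK219 reached a WT library in these 3 genes. Tnfrsf1b (0.31 ± 0.18, edgeR adjusted p = 0.73), Ltbr (0.07 ± 0.14, edgeR adjusted p = 0.96) and Cd40 (0.39 ± 0.45, edgeR adjusted p = 0.91) had smaller changes. Of these, Tnfrsf1b also had both WT livers above all GSK219 livers, while Ltbr and Cd40 overlapped.

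The ligand Tnfsf13b had 7, 8 and 6 counts with GSK219, below the 21 and 18 of WT (log2 fold change 1.44 ± 0.49, edgeR adjusted p = 0.54). Tnf had 7, 6 and 6, also below both WT livers, with 0.95 ± 0.60 (edgeR adjusted p = 0.75), and without WT replicate 1 the log2 fold change was 0.57. Both ligands reached 10 counts in 2 livers of a group only in WT. For Tnf, TRPV4 KO replicate 3 held 12 counts as well. Tnfrsf11b had 30, 78 and 134 counts with GSK219, so that replicate 3 came close to the WT livers, and its log2 fold change was 0.82 ± 0.60 (edgeR adjusted p = 0.80). It was 0.44 without GSK219 replicate 1 and 1.38 without GSK219 replicate 3. The decoy receptors had a median of 0.81 in this comparison. Tnfrsf23, with 15, 12 and 21 counts, and Tnfrsf26, with 31, 16 and 17, overlapped the WT livers.

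Compared directly by edgeR, TRPV4 KO and GSK219 livers gave no called member, where 0.106% of all genes were called. None had an unadjusted p under 0.05, where 6.12% of all genes had one. DESeq2 called no member either, where it called 0.705% of all genes. The median log2 fold change of TRPV4 KO over GSK219 was 0.01, the same as over all genes, with 15 members higher and 13 lower. All 4 decoy receptors were among the lower ones, with a median of -0.68. Tnfrsf1a differed by -0.11 ± 0.17, Ltbr by 0.05 ± 0.12, Tnfrsf1b by 0.21 ± 0.16 and Fas by 0.00 ± 0.28 on the log2 scale. The scarcer Tnfrsf11b (-0.45 ± 0.56), Cd40 (-0.11 ± 0.42) and Tnf (0.00 ± 0.62) had wider errors that leave room for changes in either direction. edgeR adjusted p-values of these 7 ran from 0.95 to 1.

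Markers of other cells moved with the WT group in the same livers. The summed level of 7 neutrophil markers was 42.2 to 50.1 CPM in WT, 1.52 to 6.14 in TRPV4 KO and 2.27 to 5.2 in GSK219 livers, with all 7 higher in both WT livers and 2 of them called against TRPV4 KO. The 7 Kupffer cell and macrophage markers summed to 1384 to 1521 CPM in WT, 370 to 827 in TRPV4 KO and 395 to 943 in GSK219 livers. For the 10 stellate cell and fibroblast markers the sums were 321 to 420, 129 to 286 and 166 to 275 CPM. The 7 epithelial and ductal markers summed to 694 to 718 CPM in WT, 448 to 686 in TRPV4 KO and 516 to 650 in GSK219 livers. In each of these 4 lists the WT range of the sum lay above the others, but single markers were less even. Both WT livers lay above all TRPV4 KO livers for 7 of 7 macrophage, 4 of 10 stellate and 1 of 7 epithelial markers (17.7% of all genes). They lay above all GSK219 livers for 7, 7 and 5 of them (15.6% of all genes). Outside the neutrophil list no marker was called. The 6 endothelial markers summed to 432 to 488 CPM in WT, above the 271 to 427 of TRPV4 KO, and overlapped the 320 to 446 of GSK219 livers. The 5 hepatocyte markers summed to 43957 to 57307 CPM in WT, below 66627 to 85195 in TRPV4 KO and 65286 to 75674 in GSK219 livers. The ranges overlapped for the 7 T and NK cell markers (3.56 to 6.93, 2.59 to 5.38 and 2.54 to 4.78 CPM), and the 6 acinar markers, with Amy2a2 at 0, had 6.62 to 15.6, 9.15 to 19 and 15.5 to 24.4 CPM. The part of these cells in the differences of the TNF family was not tested, and in bulk tissue fewer cells of a type and less RNA per cell cannot be told apart.

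Downstream of the receptors, 44 signaling components (TRAF proteins, RIP kinases, caspases, the IKK complex, NF-kappaB subunits and the proteins that shed TNF) had a median log2 fold change of WT over TRPV4 KO of 0.12, and 30 known NF-kappaB target genes, of which 22 were tested, one of 0.54, against -0.01 over all genes. The main edgeR fit, with no block or sex reads term, called no gene of either list in any of the 3 liver comparisons. For WT against TRPV4 KO, the fit with the sex reads term and the fit with the replicate block each called the component Rhbdf2 and the target genes Cxcl1, Icam1, Il1b and Mmp9, all higher in WT, where they called 3.54% and 3.51% of all genes. In the main fit, 9 of 44 signaling components (5 higher and 4 lower in WT) had an unadjusted p under 0.05 for WT against TRPV4 KO. So did 9 of 22 target genes (40.9%, 8 higher and 1 lower), where 17.1% of all genes had such a p. For WT against GSK219 there were 3 (6.82%) and 9 (40.9%), all higher in WT, where 8.22% of all genes had one. For TRPV4 KO against GSK219 there were 1 (2.27%) and 0, where 6.12% of all genes had one. For WT against TRPV4 KO, DESeq2 called 2 of the 44 components, Rhbdf2 and Adam10, which take part in the shedding of membrane proteins, and 7 of the 22 target genes, where it called 5.24% of all genes. For WT against GSK219 it called Rhbdf2 of the 44 and Cxcl1 and Vcam1 of 25 target genes, where it called 0.699% of all genes. Of 9 family genes under other symbols, 5 were tested and none was called.

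**Figure D3:**
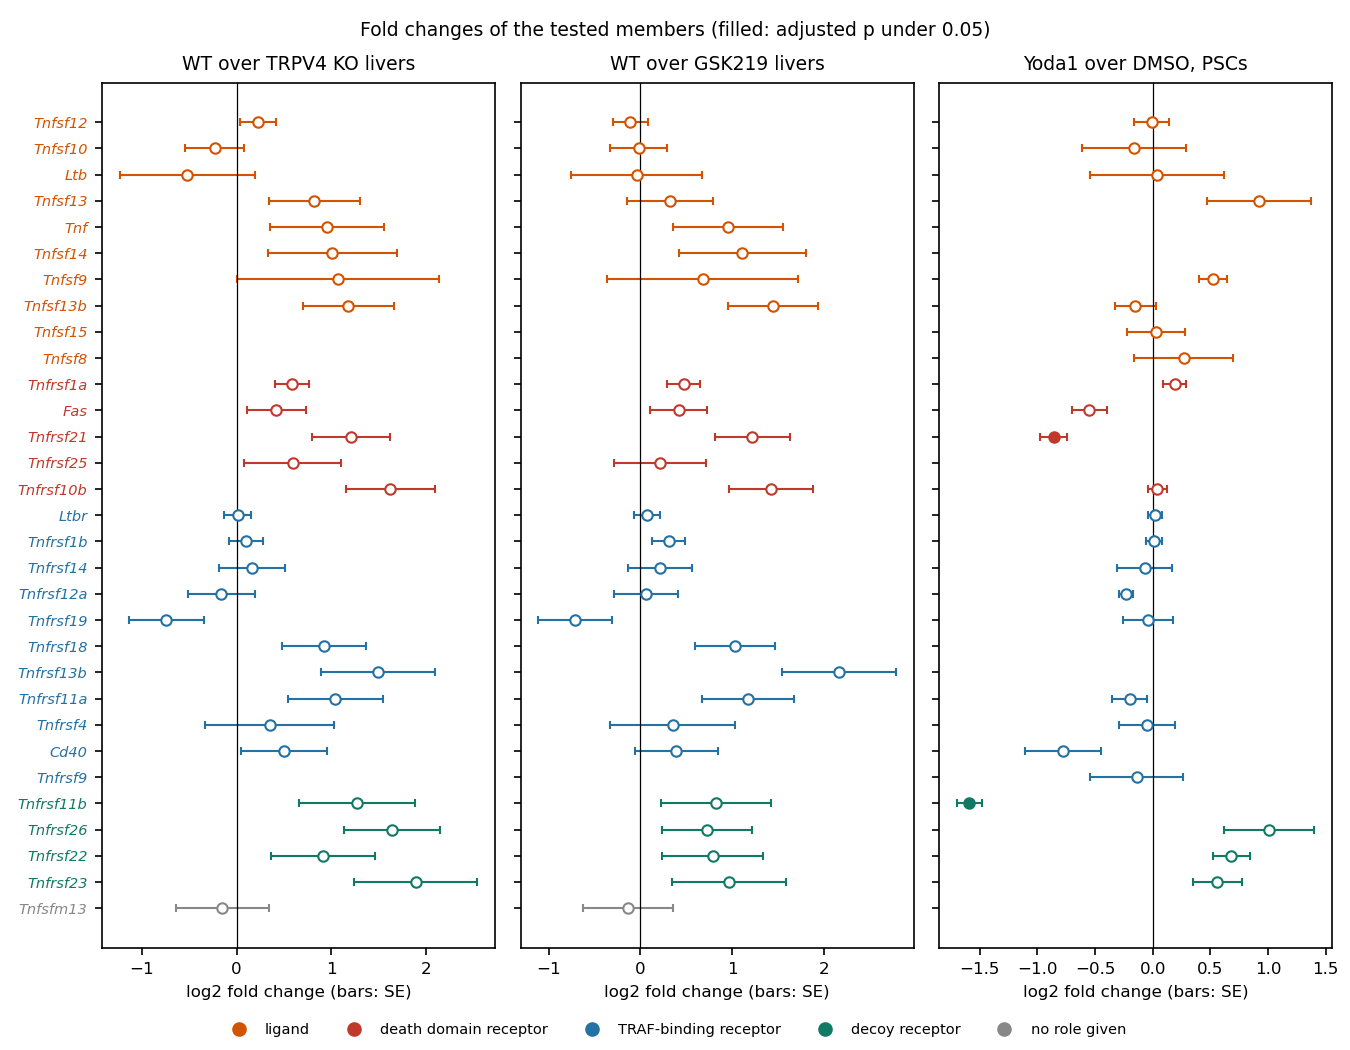
Log2 fold changes with SE of the tested members, in the color of their role, for WT over TRPV4 KO livers, WT over GSK219 livers and Yoda1 over DMSO in PSCs. Filled circles passed an adjusted p of 0.05, which in these 3 comparisons were Tnfrsf11b and Tnfrsf21 in PSCs, at -1.59 and -0.86.

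In PSCs the comparison of Yoda1 with DMSO asks which members respond to an agonist of PIEZO1. Of 25 tested members, 2 fell with Yoda1 by limma's moderated test, Tnfrsf11b and Tnfrsf21, and none rose, where 2.47% of all 15145 genes fell and 2.19% rose. The median log2 fold change of the members was -0.01, the same as over all genes, and 12 of 25 were above 0. DMSO and Yoda1 libraries of one pair deviated from their group means together. With the pair as a replicate block, limma called 8 members, 4 lower and 4 higher, where 9.55% of all genes were lower and 8.68% higher.

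Tnfrsf11b (chromosome 15, 54250619 to 54278484), whose product osteoprotegerin is a secreted decoy for the ligands RANKL and TRAIL, had the largest change. Normalized reads were 2373, 2549 and 3106 with DMSO and 912, 817 and 912 with Yoda1. No library of one treatment came near the other. The mean went from 2676 ± 383 to 880.4 ± 54.8 (SD, n = 3 each). The fitted change was -1.59 ± 0.11 on the log2 scale, or 3.02-fold lower (limma adjusted p = 0.0046). Leaving out any 1 of the 6 libraries kept the call, with log2 fold changes between -1.68 and -1.48. Its ligand Tnfsf11 (RANKL) had 2 to 16 reads and its other ligand Tnfsf10 (TRAIL) 5 to 22 reads in these libraries. Tnfsf11 was not tested, and Tnfsf10 was not called.

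Tnfrsf21, the only other called member, had 1505, 1344 and 1112 normalized reads with DMSO and 763, 683 and 715 with Yoda1. The treatments were apart, and pair 3 had the smallest step between them. The mean went from 1320 ± 197 to 720.4 ± 40.2. The fitted change was -0.86 ± 0.12 on the log2 scale, or 1.82-fold lower (limma adjusted p = 0.016, and 0.0032 with the block). Without DMSO replicate 1, DMSO replicate 2 or Yoda1 replicate 2 its limma adjusted p was 0.053, 0.097 and 0.089.

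The other death domain receptors gave smaller values. Fas had 291, 267 and 217 normalized reads with DMSO and 157, 180 and 189 with Yoda1, without overlap (-0.55 ± 0.15, limma adjusted p = 0.091, and 0.051 with the block). Tnfrsf1a had 4069, 4242 and 3662 against 4922, 4757 and 3980, which overlap across pairs but were higher with Yoda1 in each one. Its log2 fold change was 0.19 ± 0.10 (limma adjusted p = 0.32, and 0.053 with the block), and edgeR on recovered reads with the block called it (0.20 ± 0.05, adjusted p = 0.046), in a fit that called 18% of all genes. Tnfrsf10b, the other TRAIL receptor, had 2294, 2127 and 2146 against 2098, 2185 and 2503.

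Cd40 and Tnfrsf12a were lower with Yoda1 in all 3 pairs. Cd40 (chromosome 2) had 246, 259 and 482 normalized reads with DMSO and 139, 168 and 257 with Yoda1. Pair 3 had the highest level under both treatments, so the groups overlap while the step within each pair did not vary much, at log2 ratios of -0.81, -0.62 and -0.90. Its log2 fold change was -0.78 ± 0.33 (limma adjusted p = 0.22, and 0.0071 with the block), and -0.47 without DMSO replicate 3. Tnfrsf12a, the receptor of TWEAK and the leading member in these cells, had 7458, 6901 and 7739 against 6273, 6008 and 6503 (-0.23 ± 0.06, limma adjusted p = 0.095, and 0.020 with the block). This was the smallest of the changes called by limma with the block, 1.18-fold lower.

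Ltbr and Tnfrsf1b, abundant receptors that bind TRAF proteins, had 3375, 3189 and 3076 and 1663, 1706 and 1588 normalized reads with DMSO. With Yoda1 they had 3380, 3306 and 3114 and 1758, 1685 and 1556. Their log2 fold changes were 0.02 ± 0.06 (limma adjusted p = 0.85) and 0.01 ± 0.07 (limma adjusted p = 0.94), and the treatments overlapped in both.

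The 3 decoy receptor genes of chromosome 7 were higher with Yoda1 in every pair. Tnfrsf22 had 266, 275 and 297 normalized reads with DMSO and 379, 416 and 569 with Yoda1. Tnfrsf23 had 1602, 1823 and 2112 against 2084, 2562 and 3683. Tnfrsf26 had 47.4, 49.4 and 72.7 against 69.6, 105 and 195. Pair 3 gave the highest value and the largest step in all 3 genes, and pair 1 the lowest.

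Tnfrsf22 kept the treatments apart (0.68 ± 0.16, limma adjusted p = 0.067, and 0.011 with the block). Tnfrsf23 (0.56 ± 0.21, limma adjusted p = 0.19, and 0.011 with the block) and Tnfrsf26 (1.01 ± 0.39, limma adjusted p = 0.19, and 0.022 with the block) did not, and were named after their values had been seen. The genes next to the cluster, Cars (-0.06 ± 0.08) and Osbpl5 (-0.11 ± 0.06), were not called with or without the block. Nap1l4, beyond Cars, was called as lower with the block (-0.20 ± 0.06, limma adjusted p = 0.14, and 0.034 with the block). Without Yoda1 replicate 3 the log2 fold change of Tnfrsf23 was 0.33 and that of Tnfrsf26 was 0.61. Of the 100-base windows of Tnfrsf22 transcripts, 8.97% were also found in Tnfrsf23, so that part of their reads could be assigned to either, and Tnfrsf26 shared none with them. The antisense gene E230032D23Rik overlaps the cluster and is not listed in the PSC table, and whether counting used strand is not given in the sources used here.

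Of the ligands, Tnfsf9 (chromosome 17), which stimulates T cells through 4-1BB, had 163, 155 and 170 normalized reads with DMSO and 205, 246 and 254 with Yoda1. The treatments did not overlap, and the log2 fold change was 0.52 ± 0.12 (limma adjusted p = 0.069, and 0.028 with the block). Tnfsf15, the leading ligand, had 1348, 694 and 893 against 1173, 860 and 886, a spread between pairs that was wider than any step with Yoda1. Tnf had 4 to 6 reads with DMSO and 4, 2 and 25 with Yoda1, the last in pair 3, and was not tested.

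**Figure D4:**
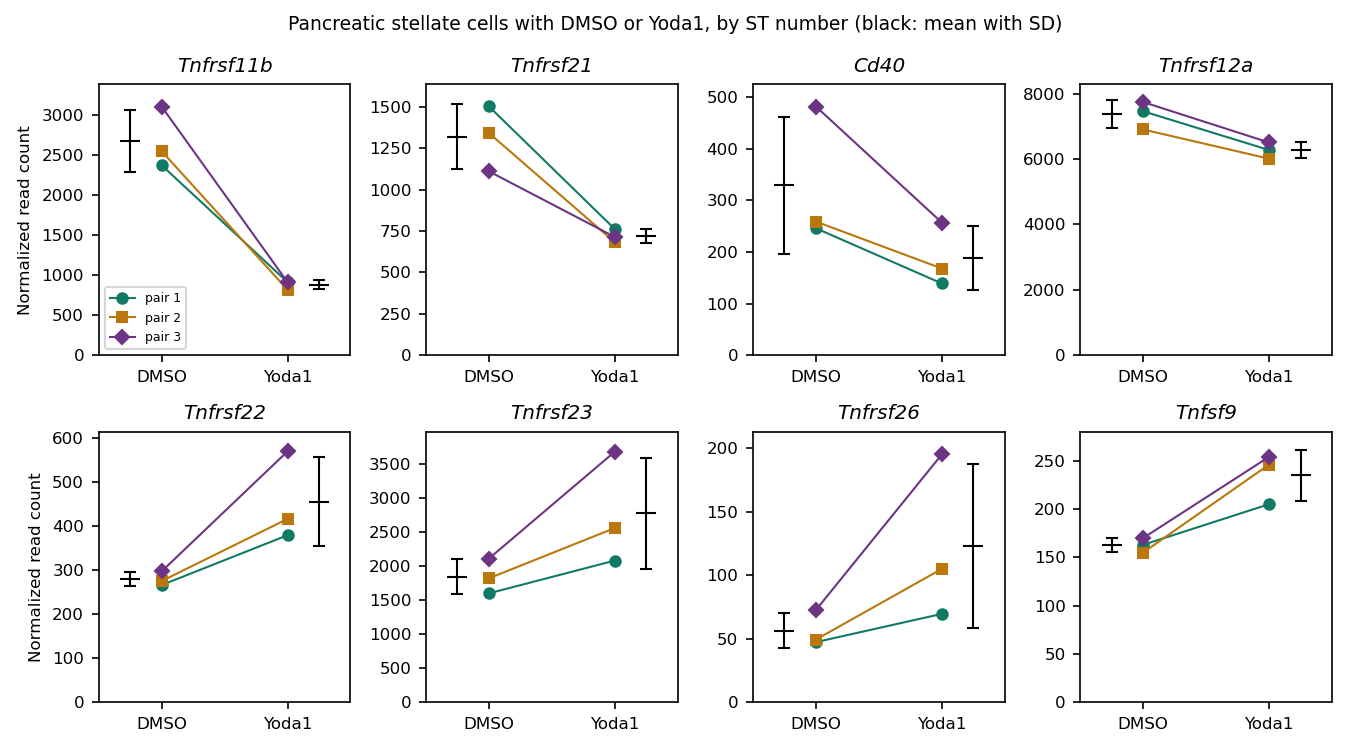
Normalized read counts of the 8 members called with the pair in the model, in 3 pairs given DMSO and Yoda1 (colored lines join libraries of one pair), with the mean and SD of each treatment in black. Tnfrsf11b, Tnfrsf21, Cd40 and Tnfrsf12a go down in all 3 pairs, and Tnfrsf22, Tnfrsf23, Tnfrsf26 and Tnfsf9 go up in all 3.

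Among the 44 signaling components, 4 fell with Yoda1 by limma and none rose, where 2.47% of all genes fell and 2.19% rose. They were Timp3, an inhibitor of the protease that sheds TNF (-0.91 ± 0.11, adjusted p = 0.014), Rhbdf1, which carries that protease to the surface (-0.35 ± 0.05, adjusted p = 0.019), the adaptor Traf5 (-0.54 ± 0.09, adjusted p = 0.026) and Map3k14, the kinase NIK of the noncanonical NF-kappaB pathway (-0.45 ± 0.08, adjusted p = 0.029). With the block, 3 components were higher and 7 lower by limma, where 8.68% of all genes were higher and 9.55% lower. Of 28 tested NF-kappaB target genes, the chemokine Ccl5 rose (2.82 ± 0.48, limma adjusted p = 0.030), and Csf1 (-0.45 ± 0.08, limma adjusted p = 0.036) and the chemokine Cxcl10 (-2.61 ± 0.51, limma adjusted p = 0.042) fell. With the block these counts were 3 higher and 7 lower. The medians of the lists were 0.00 and -0.14, against -0.01 over all genes. Of the 4 tested family genes under other symbols, limma called none, and with the block it called Eda2r, a receptor of ectodysplasin A2, as lower (-0.24 ± 0.06, limma adjusted p = 0.036).

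Markers of cell types in the same PSC libraries moved as follows. Of 8 listed stellate cell and fibroblast markers, 6 fell with Yoda1 by limma, and their summed value was 904247 to 996546 with DMSO and 436342 to 556303 with Yoda1. The 4 listed endothelial markers summed to 1748 to 2129 with DMSO and 1119 to 1321 with Yoda1, which do not overlap. Of these 4, Kdr was called lower (-1.07 ± 0.18, limma adjusted p = 0.030), and Vwf (-0.25 ± 0.36), Pecam1 (0.53 ± 0.44) and Cdh5, also above 0, were not called, with a median of 0.14 over the list. The 7 epithelial and ductal markers summed to 73646 to 104403 and 58494 to 130977, and none was called. The 5 listed acinar markers summed to 1034 to 6106 and 1276 to 12346, and none was called. The part of these shifts in the values of Tnfrsf11b, Tnfrsf21 and the other members was not tested.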

How the data were processed

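Livers (8) and PSCs (6 libraries) were grouped by the conditions in their labels. Liver files hold raw counts of reads per gene as the authors deposited them, on GRCm38 (98.3% of the genes shared with GENCODE M21 have its coordinates). Their table has 7 more count columns that belong to none of the samples described here and were left aside. The PSC table, as deposited, holds a normalized signal. Each library has a single step of which 100% of its values are multiples (within 0.1 of a whole read), so each value is a count over a size factor. The deposited table also holds the authors' own fold changes, standard errors, scores and p-values, which were not used. The submitters' processing notes name HISAT2 2.0.5 and Trim Galore. The counting tool is not given in the sources used here.

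Liver counts were fitted in R 4.3.3 with edgeR 4.0.16 (TMM, filter with minimum count 10, robust quasi-likelihood test, all 8 livers in one model, 28.3% biological coefficient of variation). PSC values were normalized signal and not counts, so they were tested with limma 3.58.1 on log2(value + 1), for genes of at least 10 in at least 3 libraries, in place of edgeR. Fold changes on this scale understate changes of low genes. Genes with a Benjamini-Hochberg adjusted p under 0.05 were called. RPKM used the gene lengths of the liver table. The fits were tested on simulated data.

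A member's fold change was printed when it was called, when its unadjusted p was under 0.05 and the groups did not overlap, or when it was Tnf, Tnfrsf1a, Tnfrsf1b, Fas, Cd40, Ltbr or Tnfrsf11b. Of signaling and target lists, called genes were named, at most 5 per list. Members, lists and rules were chosen with earlier results of these data known. Tnfrsf19, Tnfsf15, Rhbdf2, Adam10 and the target genes in livers, and Tnfrsf10b, Tnfsf15, Tnfrsf23, Tnfrsf26 and the genes beside them in PSCs, were chosen after their values were seen. PSC labels give a DMSO and a Yoda1 library the same ST and replicate number without saying what it marks. The numbers were taken as pairs because libraries of one number deviated together (correlations across genes of 0.43, 0.26 and 0.53). Alternatives were DESeq2 1.42.0, other normalizations, no filter, only the groups compared, a replicate block, a term for Xist against Y-linked reads, a fold-change threshold, other pseudocounts (0.1 and 10), edgeR on recovered PSC reads, and each library left out. Errors beside means are SD over libraries, and errors beside log2 fold changes are SE. For edgeR the SE was computed as the absolute log2 fold change over the square root of the F of its test. For limma it was the absolute log2 fold change over the absolute moderated t.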

Additional observations from a re-analysis of the deposited data

How the results depend on the processing

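No member was called between livers of WT and TRPV4 KO mice, but 1, Tnfrsf21, was called with the replicate block and 1, again Tnfrsf21, with the sex reads term. Leaving out 1 liver gave 0 to 3 calls, where 0.0189% to 8.64% of all genes were called. The numbers do not pair the mice: correlations of same-numbered livers ran from -0.52 to 0.59. In PSCs, 2 calls (4.66% of all genes) became 8 with the replicate block (18.2% of all genes), 9 by edgeR on recovered reads with that block, which adds Tnfrsf1a (18% of all genes), and 1 when a log2 fold change over 1 was also asked for (1.52% of all genes). Leaving out 1 PSC library gave 1 to 3 calls, where 0.247% to 7.05% of all genes were called, and Tnfrsf21 was lost in 3 of these 6 fits. In 42 other checks the number of calls stayed within 1.5 times of that reported. The cause of these shifts was not tested. Among single members, 468 checks kept direction and side of the threshold, 19 passed it, 3 no longer did, and 32 changed sign. Ltbr between WT and TRPV4 KO was -0.02 without the filter and -0.05 with the block. Fas between TRPV4 KO and GSK219 was -0.01 with DESeq2, RLE normalization and no filter, and -0.02 with only the 2 groups, the block and the sex reads term. 
With 1 library left out, ranges of the log2 fold change that took in both signs were, for WT against TRPV4 KO, Ltbr -0.06 to 0.11, Tnfrsf1b -0.03 to 0.28, Fas -0.13 to 0.84 and Cd40 -0.25 to 1.01. For WT against GSK219, Ltbr -0.01 to 0.13, Fas -0.15 to 0.82 and Cd40 -0.38 to 0.88. For TRPV4 KO against GSK219, Tnfrsf1a -0.27 to 0.04, Ltbr -0.05 to 0.13, Fas -0.24 to 0.13, Tnfrsf11b -0.95 to 0.11, Cd40 -0.30 to 0.09 and Tnf -0.05 to 0.31. For Yoda1 against DMSO, Ltbr -0.01 to 0.06 and Tnfrsf1b -0.03 to 0.06.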
